A study of Mus musculus with 12 samples.

Results

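The myogenic regulatory factors and the proteins that hold them in check were followed in C2C12GFP cells as *Myod1*, *Myog*, *Myf5*, *Myf6*, *Pax7*, *Id1*, *Id2*, *Id3*, and *Msc*. These 9 genes were chosen by name for their roles in muscle commitment and were taken from a table of 55536 mouse genes. They and the gene lists used below were chosen with earlier results of these data known. Of the 9, 8 passed the filter on low counts and were tested among 14499 genes, and *Myf6* was not tested because its counts were too low.

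C2C12GFP is a mouse myoblast line that expresses green fluorescent protein and fuses into myotubes when serum is lowered. The cells were differentiated either on uncoated plates (control) or on a coating, which was Collagen I, fibronectin, or Geltrex™, and RNA was sequenced from 3 samples in each of these 4 groups. Collagen I and fibronectin are single matrix proteins, whereas Geltrex™ is an extract of basement membrane that holds several matrix proteins, laminin among them. The day of differentiation at which RNA was taken for sequencing is not given in the sources used here, and all 4 groups carry the reporter, so no group is a parental line without it.

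Total counts per sample ranged from 23812461 to 27334546 in the control, from 22598438 to 26231581 on Collagen I, from 24614474 to 27351766 on fibronectin, and from 22520404 to 24477732 on Geltrex™. Levels are given as CPM (counts per 1000000 counts of the library after TMM scaling), with the mean ± SD of 3 samples. Levels of different genes are compared only as FPKM, which also divides by the exon length of the gene. Fold changes are on the log2 scale with their SE and come from edgeR's quasi-likelihood test. In the fit of all 12 samples the p-values carry a Benjamini-Hochberg adjustment across 14499 genes, in each alternative fit across the genes that fit tested, and a gene passed at an adjusted p of at most 0.05. The labels do not say that the samples of a group were separate cultures, so the p-values measure only the spread between these samples, which may be technical.

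Samples of one group were not equally alike. For pairs of samples of a group, the mean squared deviation per gene relative to counting noise (a value of 1 is noise alone) was 2.18, 3.84, and 4.54 on Geltrex™, against 7.71 to 64.6 on Collagen I, 21.7 to 31.2 in the control, and 20.8 to 30.7 on fibronectin. The Geltrex™ samples thus differed by more than counting noise and were kept as 3 samples, and where their treatment as 1 sample ended a call of a gene named with its test, this is stated. That treatment leaves 1 Geltrex™ sample, which is assumed to vary like the samples of the other groups, and it tested 15666 genes. In it 7.3% of all genes were higher and 5.97% lower on Geltrex™ than in the control, against 16.4% and 16.6% with 3 samples. Collagen I replicate 3 had 11.5% of its counts on mitochondrial genes, whereas the other 11 samples had between 4.56% and 8.28%.

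MyoD (*Myod1*) and Myf5 commit cells to the muscle lineage, and myogenin (*Myog*) drives the terminal differentiation of myoblasts into myotubes. These basic helix-loop-helix factors bind E-box motifs in DNA as heterodimers with E proteins. The Id proteins lack a basic region, take up the E proteins, and so keep the myogenic factors from binding DNA, and musculin (*Msc*, also called MyoR) is a repressor that binds the same motifs.

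Promoter windows from RefSeq (build GRCm38.p6, 250 bases before to 50 bases after the start of transcription) were at hand for 5 of the 9 genes, *Myog*, *Myf5*, *Pax7*, *Id2*, and *Id3*. Those of *Myog*, *Id2*, and *Id3* are shown because these genes passed the test in at least 1 comparison. Capitals mark matches on either strand to 4 motifs, the E-box CANNTG bound by the myogenic factors, the MEF3 motif TCAGGTT known from muscle promoters, GGCGCC, a motif of the BMP response elements known from Id genes, and the MEF2 motif, searched by its consensus. The windows are *Myog* at chr1:134289754-134290053 (plus strand), *Id2* at chr12:25096043-25096342 (minus strand), and *Id3* at chr4:136143572-136143871 (plus strand), each written 5′ to 3′ along its gene.
Myog: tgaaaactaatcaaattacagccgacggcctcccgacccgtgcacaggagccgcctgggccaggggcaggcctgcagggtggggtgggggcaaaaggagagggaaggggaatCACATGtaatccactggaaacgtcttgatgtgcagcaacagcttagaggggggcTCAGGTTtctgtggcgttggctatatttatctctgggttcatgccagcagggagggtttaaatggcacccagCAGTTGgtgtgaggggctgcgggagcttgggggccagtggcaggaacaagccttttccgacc
Id2: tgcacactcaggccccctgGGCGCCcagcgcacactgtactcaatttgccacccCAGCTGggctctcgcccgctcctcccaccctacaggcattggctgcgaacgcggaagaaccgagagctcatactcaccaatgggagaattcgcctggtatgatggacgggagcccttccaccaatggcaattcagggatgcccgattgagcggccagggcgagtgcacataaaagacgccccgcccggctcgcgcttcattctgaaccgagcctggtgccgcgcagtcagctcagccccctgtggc
Id3: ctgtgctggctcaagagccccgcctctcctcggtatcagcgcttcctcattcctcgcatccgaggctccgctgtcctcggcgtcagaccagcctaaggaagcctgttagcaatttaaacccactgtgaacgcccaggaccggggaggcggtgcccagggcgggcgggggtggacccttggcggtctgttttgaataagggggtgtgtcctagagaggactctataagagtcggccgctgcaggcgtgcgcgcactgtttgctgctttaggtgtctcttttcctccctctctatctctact

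The *Myog* window held 2 E-boxes, CACATG beginning 138 bases and CAGTTG beginning 12 bases before the start, and 1 MEF3 motif beginning 84 bases before it. The *Id2* window held 1 E-box, CAGCTG, beginning 196 bases before the start and 1 GGCGCC beginning 231 bases before it. No match to all letters of the MEF2 motif was found in any of the 5 windows, and no match to any of the 4 motifs in those of *Id3*, *Myf5*, and *Pax7*. Near matches were not searched for and are not in capitals. The *Myog* window holds ctatatttat, which differs from the MEF2 consensus only in its last letter (T, where A or G is required). The search thus does not show that the window lacks a MEF2 site. Among 32841 RefSeq promoter windows of the same length, 72.3% held an E-box, 4.07% held the MEF3 motif, 11.9% held GGCGCC, and 3.185% held the MEF2 motif. The matches do not overlap each other, and they describe letters and not bound sites.

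Among the myogenic factors, the group means of *Myog* spanned 2.18 on the log2 scale, whereas those of *Myod1* spanned 0.232 and those of *Myf5* 0.155. *Myog* fell on fibronectin and Geltrex™, *Id2* was lowest on Collagen I and highest on fibronectin, and *Msc* was highest on Geltrex™ at a low level. In bulk RNA, fewer cells that express a gene and less RNA of that gene per cell cannot be told apart.

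*Myog* (chr1:134289989-134292548, GRCm38) was at 303, 284, and 228 CPM in control replicates 1 to 3 and at 290, 276, and 289 CPM on Collagen I. It was at 74.0, 49.9, and 66.9 CPM on fibronectin and at 84.1, 79.5, and 77.7 CPM on Geltrex™. Control and Collagen I samples overlapped, and every one of these 6 samples lay above every sample of the other coatings. Relative to the control (272 ± 38.8 CPM), *Myog* fell on fibronectin to 63.6 ± 12.4 CPM, a log2 fold change of -2.10 ± 0.13 (SE, edgeR quasi-likelihood test, Benjamini-Hochberg adjusted p = 1.45e-08). On Geltrex™ it fell to 80.4 ± 3.27 CPM, a log2 fold change of -1.76 ± 0.13 (SE, edgeR, Benjamini-Hochberg adjusted p = 5.08e-08). Of all genes tested, 0.945% had a lower log2 fold change than *Myog* on fibronectin relative to the control and 1.82% on Geltrex™.

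Collagen I left *Myog* at 285 ± 7.74 CPM, and its log2 fold change from the control was 0.07, with a 95% interval from -0.19 to 0.33. In the direct comparison, Collagen I samples had more *Myog* than fibronectin samples, by 2.16 ± 0.13 (log2, SE, edgeR, Benjamini-Hochberg adjusted p = 7.49e-09), and more than Geltrex™ samples, by 1.82 ± 0.13 (log2, SE, edgeR, Benjamini-Hochberg adjusted p = 3.21e-08). Fibronectin and Geltrex™ samples did not overlap in *Myog*, but the difference did not pass the test (Geltrex™ minus fibronectin, log2 0.34 ± 0.12, edgeR, Benjamini-Hochberg adjusted p = 0.0706). This difference passed with DESeq2 (Benjamini-Hochberg adjusted p = 0.0466), when genes with low counts were kept (log2 0.34, edgeR, Benjamini-Hochberg adjusted p = 0.00856), and without fibronectin replicate 1 (log2 0.46, edgeR, Benjamini-Hochberg adjusted p = 0.0293) or control replicate 3 (log2 0.34, edgeR, Benjamini-Hochberg adjusted p = 0.0498). Without fibronectin replicate 2, the lowest sample, it shrank to 0.19 (log2, edgeR, Benjamini-Hochberg adjusted p = 0.296), and with the Geltrex™ samples summed into 1 it did not pass either (edgeR, Benjamini-Hochberg adjusted p = 0.416).

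**Figure D1:**
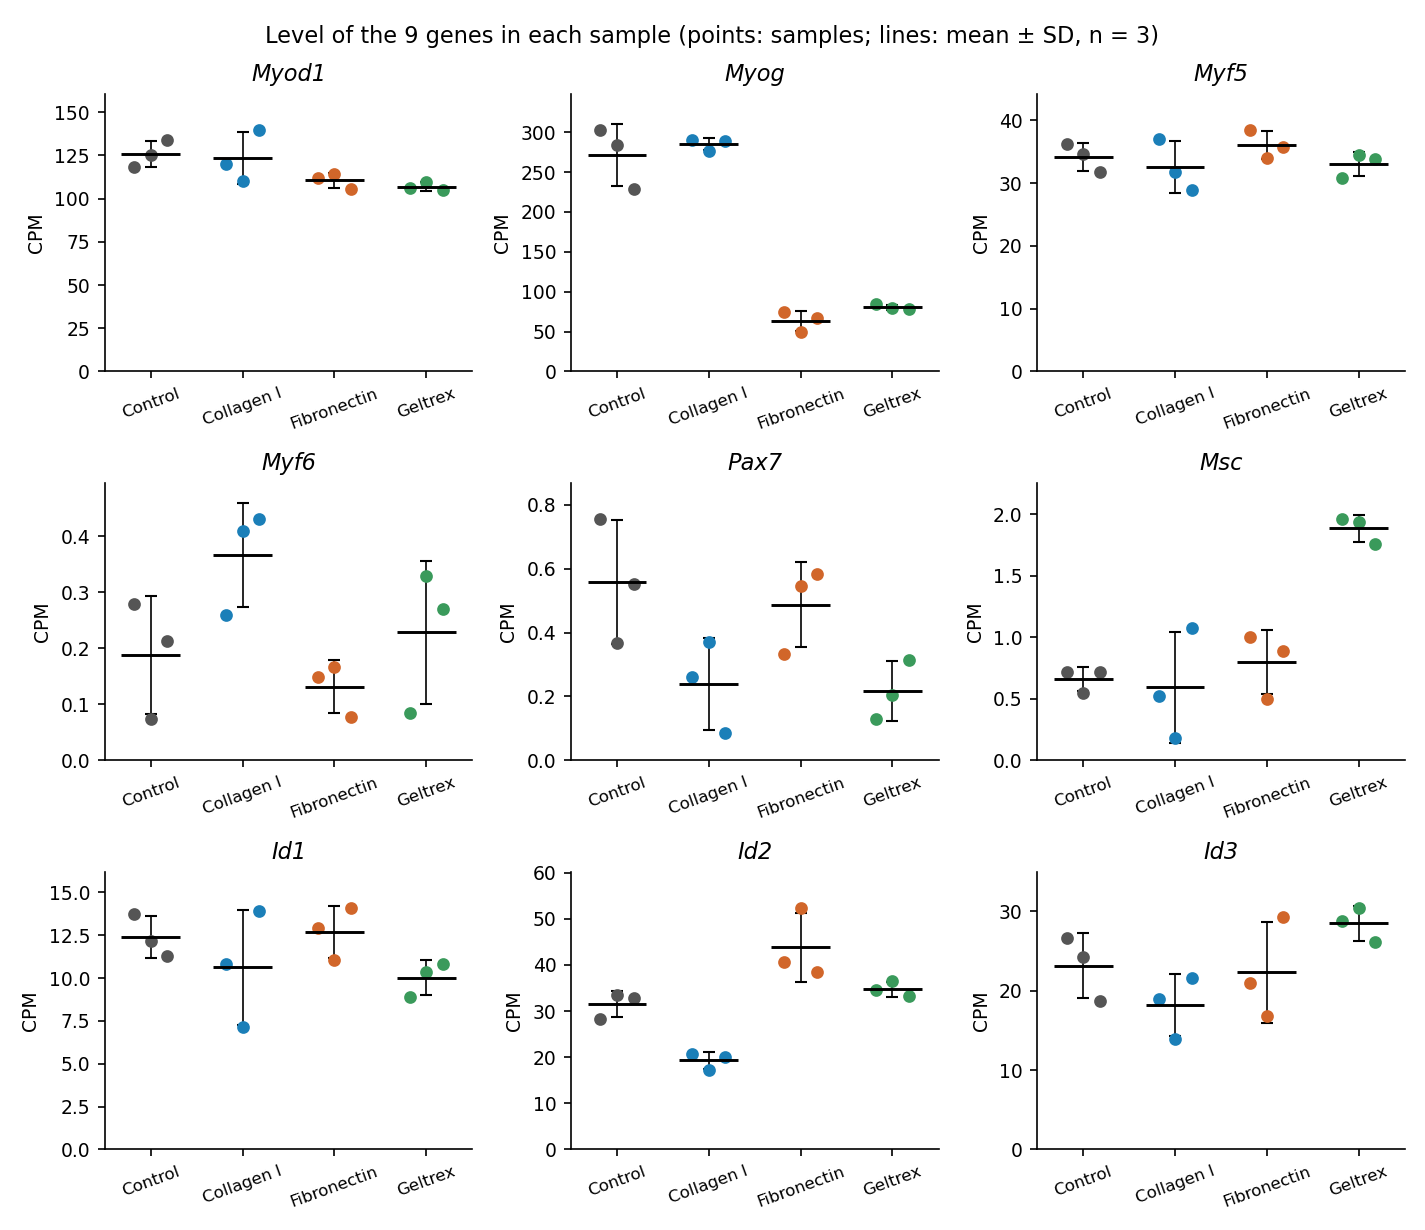
CPM of the 9 genes in each of the 12 samples, with 1 panel per gene, an axis from 0 in each panel, points for samples, and lines for the mean ± SD of 3 samples. *Myog* lay between 228 and 303 CPM in the control and on Collagen I and between 49.9 and 84.1 CPM on fibronectin and Geltrex™, whereas *Myod1* lay between 105 and 140 CPM in all samples.

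*Myod1* (chr7:46376474-46379099) was at 118, 125, and 134 CPM in the control, at 120, 110, and 140 on Collagen I, at 112, 114, and 106 CPM on fibronectin, and at 106, 110, and 105 CPM on Geltrex™. All 12 samples lay within a narrow band, with the lowest values on fibronectin and Geltrex™, and the 6 samples on these coatings lay below the 3 control samples. The log2 fold change from the control was -0.23 ± 0.09 on Geltrex™, which passed narrowly (edgeR, Benjamini-Hochberg adjusted p = 0.0489). That call was lost in 9 of the 12 fits that left out 1 sample, namely those without any 1 of the Geltrex™ or fibronectin samples, control replicate 2 or 3, or Collagen I replicate 1, with edgeR Benjamini-Hochberg adjusted p between 0.0523 and 0.169. It was also lost with RLE scaling, without a filter on low counts, and with the Geltrex™ samples summed into 1 (edgeR, Benjamini-Hochberg adjusted p = 0.059, 0.107, and 0.367). On fibronectin the log2 fold change from the control was -0.19 ± 0.09 (edgeR, Benjamini-Hochberg adjusted p = 0.116), and it passed without Collagen I replicate 3 (log2 -0.20, edgeR, Benjamini-Hochberg adjusted p = 0.0354). Likewise, the value for Collagen I minus Geltrex™, 0.21 ± 0.09 (edgeR, Benjamini-Hochberg adjusted p = 0.0725), passed without Collagen I replicate 2 (log2 0.28, edgeR, Benjamini-Hochberg adjusted p = 0.0288).

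*Myf5* (chr10:107482908-107486134), the other commitment factor, had group means between 32.5 ± 4.13 CPM for Collagen I and 36.1 ± 2.25 CPM on fibronectin. Its groups overlapped in all 6 comparisons and none passed the test. The 95% intervals of its log2 fold changes reached from -0.36 to 0.28 over the 6 comparisons, so larger changes lay outside them.

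*Myf6*, which lies next to *Myf5* on chromosome 10 and encodes Mrf4, a factor of late differentiation, had between 2 and 11 counts per sample. Its mean was 0.188 ± 0.105 CPM in the control, at 0.367 ± 0.0931 on Collagen I, at 0.131 ± 0.0473 CPM on fibronectin, and at 0.229 ± 0.127 CPM on Geltrex™. The 3 Collagen I samples all lay above the 3 fibronectin samples, but at these counts a difference was not detectable. When genes with low counts were kept, the log2 fold change of *Myf6* for Collagen I minus fibronectin was 1.45 ± 0.71 (edgeR, Benjamini-Hochberg adjusted p = 0.148).

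*Pax7* (chr4:139737062-139833528), a marker of satellite cells and a regulator upstream of the myogenic factors, was also close to the detection limit, with 2 to 19 counts per sample. It was at 0.756, 0.367, and 0.552 CPM in the control, at 0.260, 0.372, and 0.0863 on Collagen I, at 0.334, 0.544, and 0.583 CPM on fibronectin, and at 0.128, 0.206, and 0.316 CPM on Geltrex™. The 3 Geltrex™ samples lay below all control and fibronectin samples, and Collagen I overlapped the other 3 groups. No comparison of *Pax7* passed the test. The nearest to the threshold was Geltrex™ minus control at -1.35 ± 0.51 (log2, SE, edgeR, Benjamini-Hochberg adjusted p = 0.0533), which passed without control replicate 2 (log2 -1.57, edgeR, Benjamini-Hochberg adjusted p = 0.0392) or Collagen I replicate 3 (log2 -1.36, edgeR, Benjamini-Hochberg adjusted p = 0.0354).

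Among the inhibitors, *Id2* changed in the most comparisons. *Id2* (chr12:25093799-25097140) was at 28.2, 33.4, and 32.8 CPM in the control, at 20.7, 17.2, and 20.1 on Collagen I, at 40.6, 52.4, and 38.6 CPM on fibronectin, and at 34.5, 36.5, and 33.2 CPM on Geltrex™. The Collagen I samples were the lowest of all and the fibronectin samples the highest, with no overlap of either with any other group, while control and Geltrex™ samples overlapped. *Id2* fell on Collagen I relative to the control by 0.71 ± 0.12 on the log2 scale (edgeR, Benjamini-Hochberg adjusted p = 0.00768). Without Collagen I replicate 2, the lowest sample, that log2 fold change was -0.63 and did not pass (edgeR, Benjamini-Hochberg adjusted p = 0.0573). On fibronectin *Id2* rose relative to the control by 0.48 ± 0.11 (log2, SE, edgeR, Benjamini-Hochberg adjusted p = 0.00492).

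Between the coatings, *Id2* on Collagen I was lower than on fibronectin by a log2 fold change of -1.18 ± 0.12 (edgeR, Benjamini-Hochberg adjusted p = 1.48e-06) and lower than on Geltrex™ by -0.85 ± 0.12 (edgeR, Benjamini-Hochberg adjusted p = 4.47e-05). *Id2* was lower on Geltrex™ than on fibronectin by -0.34 ± 0.11 (log2, SE, edgeR, Benjamini-Hochberg adjusted p = 0.0496). This last call was lost in 9 of the 12 fits that left out 1 sample, those without control replicate 2 or 3, Collagen I replicate 1 or 2, fibronectin replicate 1 or 2, or any 1 of the Geltrex™ samples, with edgeR Benjamini-Hochberg adjusted p between 0.0502 and 0.266. Without fibronectin replicate 2, the highest sample, the log2 fold change was -0.19. It was also lost with RLE scaling (edgeR, Benjamini-Hochberg adjusted p = 0.0528), with at least 10 counts required in every sample (edgeR, Benjamini-Hochberg adjusted p = 0.053), and with the Geltrex™ samples summed into 1 (edgeR, Benjamini-Hochberg adjusted p = 0.383).

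*Id3* (chr4:136143497-136145755) was at 26.6, 24.2, and 18.6 CPM in the control, at 19.0, 14.0, and 21.6 on Collagen I, at 20.9, 16.8, and 29.3 CPM on fibronectin, and at 28.8, 30.4, and 26.1 CPM on Geltrex™. The Geltrex™ samples all lay above the Collagen I samples, and each other pair of groups overlapped. *Id3* was lower on Collagen I than on Geltrex™ by a log2 fold change of -0.65 ± 0.19 (edgeR, Benjamini-Hochberg adjusted p = 0.0133). The call was lost without Collagen I replicate 2 (log2 -0.49, edgeR, Benjamini-Hochberg adjusted p = 0.0551) and with the Geltrex™ samples summed into 1 (edgeR, Benjamini-Hochberg adjusted p = 0.116). The other 5 comparisons of *Id3* did not pass. Without a filter on low counts, 3 of them passed, Geltrex™ minus control, Collagen I minus fibronectin, and Geltrex™ minus fibronectin (log2 0.31, -0.31, and 0.35, edgeR, Benjamini-Hochberg adjusted p = 0.0469, 0.0408, and 0.0257). Without fibronectin replicate 3, the highest of its group, *Id3* was higher on Geltrex™ than on fibronectin by 0.59 (log2, edgeR, Benjamini-Hochberg adjusted p = 0.0232).

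*Id1* (chr2:152736251-152737410) ranged from 7.17 to 14.1 CPM over the 12 samples. Its mean was 12.4 ± 1.23 CPM in the control, at 10.6 ± 3.36 on Collagen I, at 12.7 ± 1.53 CPM on fibronectin, and at 10.03 ± 1.01 CPM on Geltrex™. All 3 Geltrex™ samples lay below the control and the fibronectin samples, and the Collagen I samples spread over the whole range. No comparison of *Id1* passed in the fit of all samples. Without Collagen I replicate 3, which had the highest *Id1* of its group, *Id1* was lower on Collagen I than on fibronectin (log2 -0.50, edgeR, Benjamini-Hochberg adjusted p = 0.0311).

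*Msc* (chr1:14753346-14755992) was at 0.716, 0.550, and 0.722 CPM in the control, at 0.520, 0.186, and 1.08 on Collagen I, at 1.003, 0.502, and 0.893 CPM on fibronectin, and at 1.97, 1.94, and 1.76 CPM on Geltrex™. The Geltrex™ samples were the 3 highest, and the other groups overlapped each other. These values rest on 39 to 47 counts per sample on Geltrex™ and on 5 to 27 counts elsewhere. *Msc* rose on Geltrex™ relative to the control by 1.51 ± 0.40 (log2, SE, edgeR, Benjamini-Hochberg adjusted p = 0.00878), and it was higher than on fibronectin by 1.22 ± 0.39 (log2, SE, edgeR, Benjamini-Hochberg adjusted p = 0.0381). It was lower on Collagen I than on Geltrex™ by a log2 fold change of -1.69 ± 0.41 (edgeR, Benjamini-Hochberg adjusted p = 0.00463).

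The difference of *Msc* between Geltrex™ and fibronectin was lost without any 1 of the 6 samples of these groups (log2 between 0.99 and 1.42, edgeR, Benjamini-Hochberg adjusted p between 0.0522 and 0.148). With the 3 Geltrex™ samples summed into 1, none of its 3 calls passed (edgeR, Benjamini-Hochberg adjusted p = 0.0815 against the control, 0.0523 against Collagen I, and 0.262 against fibronectin). Without Collagen I replicate 3, *Msc* was also lower on Collagen I than on fibronectin (log2 -1.21, edgeR, Benjamini-Hochberg adjusted p = 0.0447). Of the exons of *Msc*, 539 bases (21.2%) overlap *Gm9947* on the opposite strand, and because the counting is not stated to use the strand, reads of these genes cannot be told apart there.

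Counted over the 8 tested genes, Collagen I minus control had 1 gene that passed, *Id2*, lower, where 0.917% of all genes were lower and 0.2% higher. Fibronectin minus control had *Myog* lower, where 14.7% of all genes were lower, and *Id2* higher, where 17.1% were higher. Geltrex™ minus control had *Myog* and *Myod1* lower, where 16.6% of all genes were lower, and *Msc* higher, where 16.4% were higher. For Collagen I minus fibronectin, *Myog* was higher, where 22.1% of all genes were higher, and *Id2* was lower, where 22.9% were lower. For Collagen I minus Geltrex™, *Myog* was higher, where 18.2% of all genes were higher, and *Id2*, *Id3*, and *Msc* were lower, where 19% were lower. Geltrex™ minus fibronectin had *Msc* higher, where 9.06% of all genes were higher, and *Id2* lower, where 10.3% were lower. Of all genes, 29 were higher and 133 lower for Collagen I minus control, and without Collagen I replicate 2 these were 9 and 35, and without fibronectin replicate 3 they were 51 and 182. They were 48 and 181 without fibronectin replicate 2, and between 10 and 15 higher and between 50 and 77 lower without control replicate 2 or 3, Collagen I replicate 1, or any 1 of the Geltrex™ samples. In a fit of these 2 groups alone they were 8 and 31, with DESeq2 124 and 361, and when genes with low counts were kept 202 and 379. With the Geltrex™ samples summed into 1 they were lower than with 3 samples. For Geltrex™ minus fibronectin, 1314 of all genes were higher and 1491 lower, against between 832 and 943 higher and between 885 and 1019 lower without fibronectin replicate 1 or 2 or any 1 of the Geltrex™ samples. Still fewer passed with the Geltrex™ samples summed into 1. Most of these counts rest on 1 gene, so nothing is read from them about the 8 genes as a group. The 6 comparisons reuse the samples of 4 groups, so those that share a group are not independent.

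**Figure D2:**
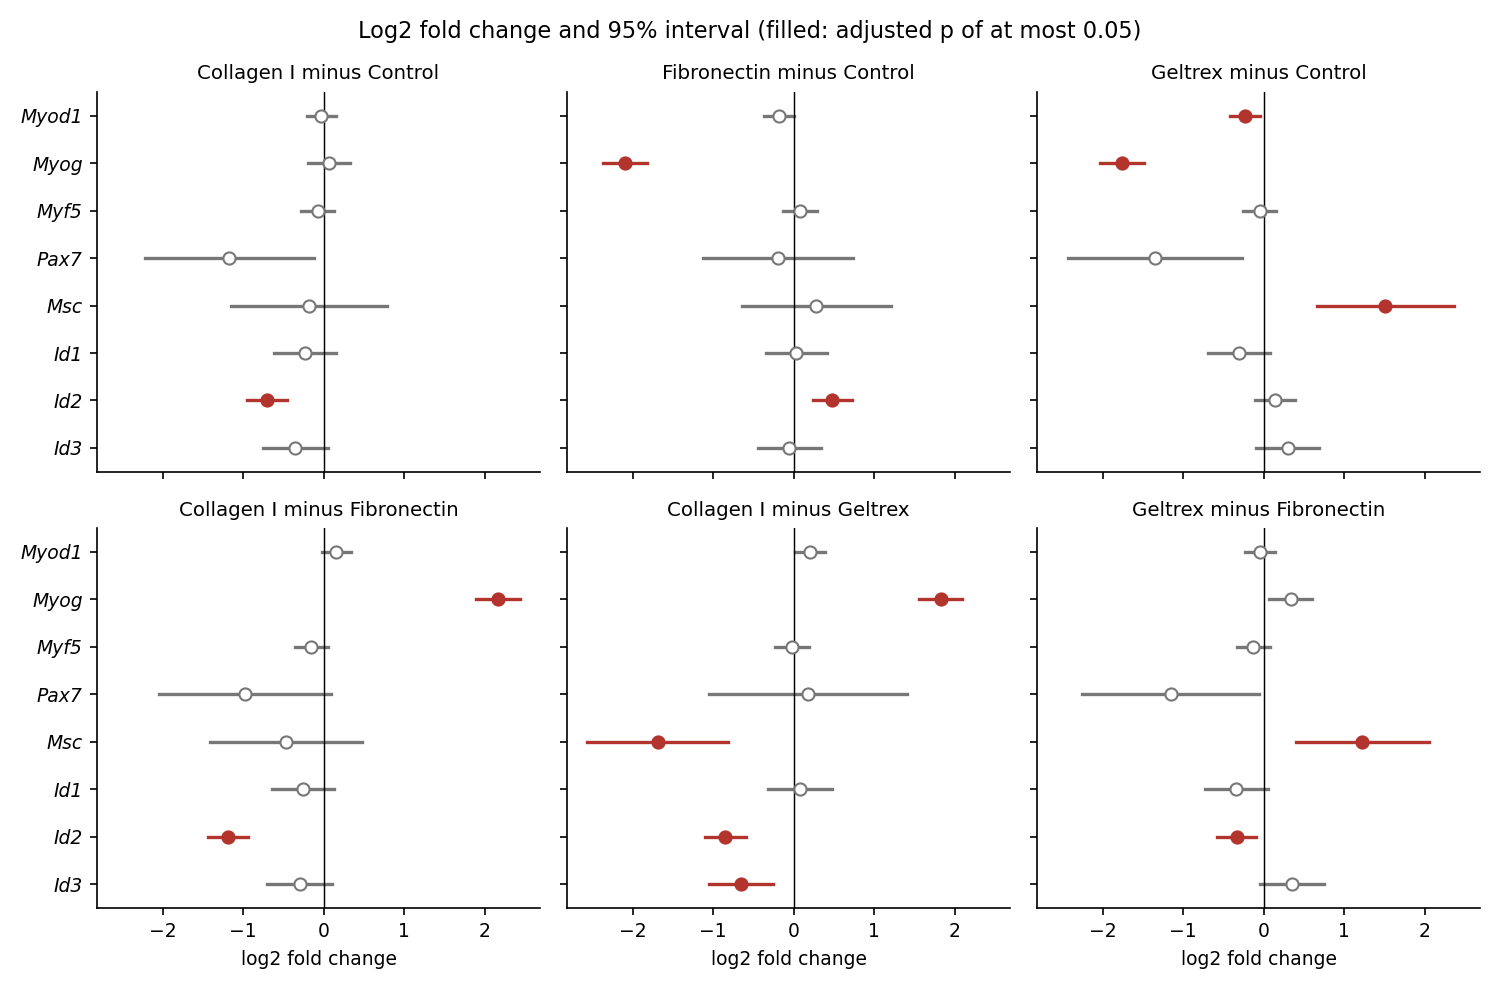
Log2 fold changes of the 8 tested genes in the 6 comparisons, with 1 panel per comparison, named as first group minus second group; points are estimates, lines are 95% intervals, and filled points passed at an adjusted p of at most 0.05. *Myog* lay at -2.10 and -1.76 on fibronectin and Geltrex™ relative to the control and at 0.07 on Collagen I, and the intervals of *Pax7* and *Msc* were the widest.

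Per exon length, *Myog* was the most abundant of the 9 genes in the control (182 ± 25.9 FPKM) and on Collagen I (191 ± 5.18 FPKM), followed by *Myod1* (67.6 ± 4.13 and 66.4 ± 8.06 FPKM). On fibronectin and Geltrex™ the order of these 2 genes was the opposite, with *Myod1* at 59.4 ± 2.40 and 57.5 ± 1.31 FPKM and *Myog* at 42.5 ± 8.28 and 53.8 ± 2.19 FPKM. The samples of the 2 genes did not overlap in FPKM in any group. The ratio of *Myog* to *Myod1* in FPKM was 3.19, 2.82, and 2.13 in the control samples, 3, 3.11, and 2.57 on Collagen I, 0.824, 0.543, and 0.788 on fibronectin, and 0.985, 0.902, and 0.922 on Geltrex™. It was above 1 in all 6 samples of the control and Collagen I and below 1 in all 6 samples of the other coatings.

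Below them, *Myf5* came next in the control (16.4 ± 1.06 FPKM) and on Collagen I (15.6 ± 1.98 FPKM), above the Id genes without overlap. In the control, *Id3* (12.9 ± 2.29 FPKM), *Id2* (12.9 ± 1.16 FPKM), and *Id1* (10.7 ± 1.06 FPKM) overlapped from one to the next in this order. On Collagen I the order was *Id3* (10.2 ± 2.18 FPKM), *Id1* (9.16 ± 2.90 FPKM), and *Id2* (7.93 ± 0.753 FPKM), again with overlap between neighbors. On fibronectin *Id2* (18.0 ± 3.06 FPKM) overlapped *Myf5* (17.3 ± 1.08 FPKM), which overlapped *Id3* (12.5 ± 3.55 FPKM), and on Geltrex™ *Id3* (15.9 ± 1.21 FPKM) and *Myf5* (15.9 ± 0.921 FPKM) overlapped, as did *Myf5* and *Id2* (14.2 ± 0.675 FPKM). *Msc*, *Myf6*, and *Pax7* were the lowest in every group, with means from 0.0370 to 0.741 FPKM.

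The summed level of the Id genes was set against that of the myogenic factors as a description. The sum over *Id1*, *Id2*, and *Id3* was 36.5 ± 2.54 FPKM in the control, 27.3 ± 5.71 FPKM on Collagen I, 41.4 ± 2.58 FPKM on fibronectin, and 38.8 ± 1.84 FPKM on Geltrex™. The sum over *Myod1*, *Myog*, *Myf5*, and *Myf6* was 266 ± 22.9, 273 ± 11.9, 119 ± 8.42, and 127 ± 2.19 FPKM in the same order of groups. The Id share of the 2 sums together was 11.9%, 12.1%, and 12.3% in the control samples, 9.32%, 7.50%, and 10.3% on Collagen I, 23.5%, 26.6%, and 27.2% on fibronectin, and 22.8%, 24.1%, and 23.1% on Geltrex™. The shares on fibronectin and Geltrex™ overlapped each other and lay above those of the other groups, and the Collagen I shares lay below the control shares. Over the 4 groups, the mean Id sum thus lay between 27.3 and 41.4 FPKM, and the mean sum of the myogenic factors lay between 119 and 273 FPKM.

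**Figure D3:**
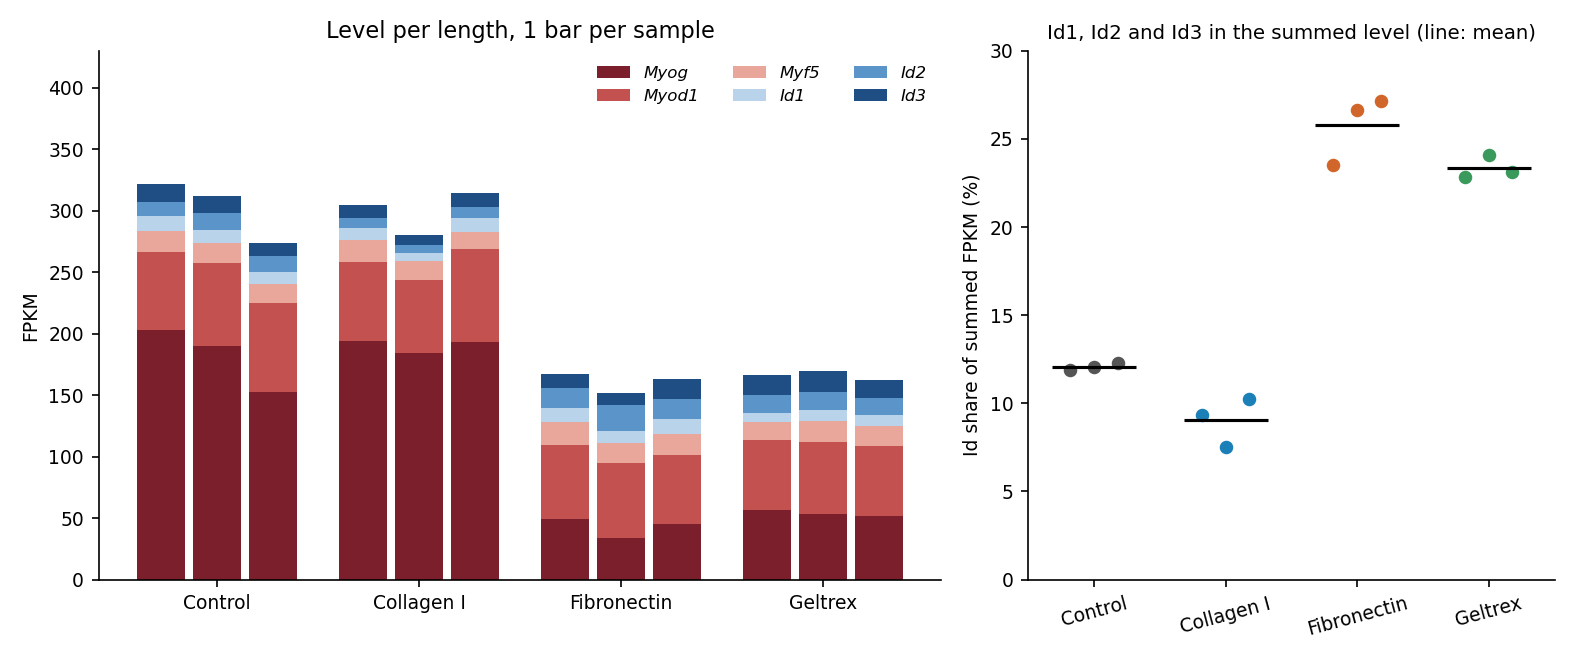
Left, FPKM of the 6 most abundant of the 9 genes stacked for each sample (red shades for the myogenic factors, blue shades for the Id genes; *Myf6* is too low to be drawn). Right, the share of the Id genes in the summed level in percent for each sample, with a line at the mean; it was 12.1% in the control, 9.03% on Collagen I, 25.8% on fibronectin, and 23.3% on Geltrex™.

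The partners of the myogenic factors were looked at next. Of the 3 E proteins, *Tcf12* rose on fibronectin (272 ± 27.2 CPM) and on Geltrex™ (279 ± 4.53 CPM) from 210 ± 23.1 CPM in the control, by log2 fold changes of 0.37 ± 0.10 (edgeR, Benjamini-Hochberg adjusted p = 0.00856) and 0.41 ± 0.10 (edgeR, Benjamini-Hochberg adjusted p = 0.00404). *Tcf3* also rose on Geltrex™, by 0.34 ± 0.09 (log2, SE, edgeR, Benjamini-Hochberg adjusted p = 0.0117). Of the list, 1 was thus higher on fibronectin and 2 on Geltrex™, where 17.1% and 16.4% of all genes were. The median log2 fold change of the list was 0.20 on fibronectin and 0.34 on Geltrex™, where that of all genes tested was -0.02 and -0.01. Without fibronectin replicate 2 there were 2 that passed on fibronectin. With the Geltrex™ samples summed into 1, neither passed on Geltrex™ (edgeR, Benjamini-Hochberg adjusted p = 0.099 for *Tcf12* and 0.145 for *Tcf3*), and *Tcf3* did not pass without control replicate 3 (log2 0.29, edgeR, Benjamini-Hochberg adjusted p = 0.0528). No E protein passed for Collagen I minus control in edgeR's or DESeq2's test, and 1 had an unadjusted p under 0.05 in edgeR's test, as had 2143 of all 14499 genes.

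MEF2 factors act with the myogenic factors at muscle promoters. *Mef2c* fell from 277 ± 39.0 CPM in the control to 113 ± 21.1 CPM on fibronectin (log2 -1.30 ± 0.16, edgeR, Benjamini-Hochberg adjusted p = 1.98e-05) and to 103 ± 6.25 CPM on Geltrex™ (log2 -1.43 ± 0.16, edgeR, Benjamini-Hochberg adjusted p = 5.68e-06). It was at 266 ± 61.5 CPM on Collagen I. *Mef2d* was lower than in the control on Geltrex™ (log2 -0.37 ± 0.10, edgeR, Benjamini-Hochberg adjusted p = 0.0074), with no overlap of the samples, but not with the Geltrex™ samples summed into 1 (edgeR, Benjamini-Hochberg adjusted p = 0.17). On fibronectin its samples overlapped those of the control and it passed narrowly (log2 -0.26 ± 0.10, edgeR, Benjamini-Hochberg adjusted p = 0.0484). That call was lost with RLE scaling, when genes with low counts were kept, in a fit of these 2 groups alone, and with the Geltrex™ samples summed into 1 (edgeR, Benjamini-Hochberg adjusted p = 0.0586, 0.0554, 0.073, and 0.12). It was also lost in 9 of the 12 fits that left out 1 sample, those without control replicate 1 or 2, Collagen I replicate 1 or 2, fibronectin replicate 2 or 3, or any 1 of the Geltrex™ samples (edgeR, Benjamini-Hochberg adjusted p between 0.0598 and 0.156). Of the 3 tested MEF2 genes, 2 were thus lower in each of these comparisons, where 14.7% and 16.6% of all genes were, but only the call of *Mef2c* held under these alternatives. *Mef2b* was not tested, with at most 6 counts in a sample.

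The list of known target genes held 17 genes, all tested. Of these, 15 were lower on fibronectin than in the control (14.7% of all genes were), with a median log2 fold change of -1.06, and 12 were lower on Geltrex™ (16.6% of all genes were), with a median of -0.63. The largest falls on fibronectin were those of *Actc1* (cardiac actin, the embryonic form in muscle; log2 -2.78 ± 0.14), *Mymk* (myomaker, the fusogen of myoblasts; -2.06 ± 0.12), *Myh3* (embryonic myosin; -2.04 ± 0.14), and *Ckm* (muscle creatine kinase; -2.00 ± 0.18). On Geltrex™ they were those of *Myh3* (log2 -1.71 ± 0.14), *Actc1* (-1.70 ± 0.13), *Ckm* (-1.53 ± 0.18), and *Mymk* (-1.43 ± 0.12). *Mymk* was at 374 ± 62.8 CPM in the control, at 321 ± 20.6 on Collagen I, at 89.4 ± 12.7 CPM on fibronectin, and at 138 ± 8.10 CPM on Geltrex™, so its order of groups differed from that of *Myog* only between the control and Collagen I.

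No target gene passed for Collagen I minus control in edgeR's test, and 3 had an unadjusted p under 0.05, as had 2143 of all 14499 genes. DESeq2 called 2 target genes higher in that comparison and 124 of all genes. In edgeR's test 1 was higher without Collagen I replicate 3 (*Actc1*, log2 0.56, Benjamini-Hochberg adjusted p = 0.0409) and 1 without fibronectin replicate 1 (*Ckm*, log2 0.56, Benjamini-Hochberg adjusted p = 0.0295). With a replicate block *Actc1* was higher as well (log2 0.47, edgeR, Benjamini-Hochberg adjusted p = 0.0103). When genes with low counts were kept, *Ckm* and *Actc1* were higher and *Musk* was lower (edgeR, Benjamini-Hochberg adjusted p = 0.000228, 0.00037, and 0.0175), as were 202 and 379 of all genes. Relative to fibronectin, 14 of the 17 were higher on Collagen I (22.1% of all genes were), and relative to Geltrex™ 13 were (18.2% of all genes were). On Geltrex™, 9 of the 17 were higher than on fibronectin (9.06% of all genes were), with a median log2 fold change of 0.34, led by *Actc1* (1.08 ± 0.14), *Chrng* (a subunit of the embryonic acetylcholine receptor; 0.94 ± 0.11), *Itga7* (integrin alpha 7; 0.70 ± 0.16), and *Acta1* (skeletal actin; 0.68 ± 0.10). *Itga7* did not pass for Geltrex™ minus fibronectin with the Geltrex™ samples summed into 1. In that fit, fewer target genes, and fewer of all genes, were lower on Geltrex™ than in the control or higher than on fibronectin. *Myog* had the same sign as these genes for Geltrex™ minus fibronectin without passing, as given above.

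The 8 proliferation genes went the other way from *Myog*. All 8 were higher on fibronectin than in the control (17.1% of all genes were), with a median log2 fold change of 1.56, and all 8 were higher on Geltrex™ (16.4% of all genes were), with a median of 1.57. No gene of the list passed for Collagen I minus control in edgeR's test, and 4 had an unadjusted p under 0.05, as had 2143 of all 14499 genes. DESeq2 called 2 genes of the list lower and 361 of all genes. In edgeR's test 1 gene was lower without Collagen I replicate 3, control replicate 1, or fibronectin replicate 2, and when genes with low counts were kept 3 were, *Mki67*, *Top2a*, and *Ccna2* (edgeR, Benjamini-Hochberg adjusted p = 0.000594, 0.0133, and 0.00432), as were 379 of all genes. *Mki67*, a marker of cycling cells, was at 56.5 ± 10.7 CPM in the control, at 40.8 ± 0.994 on Collagen I, at 194 ± 52.3 CPM on fibronectin, and at 205 ± 18.2 CPM on Geltrex™. *Ccnd1* (cyclin D1) was at 16.1 ± 1.81, 15.9 ± 1.51, 43.7 ± 2.65, and 64.3 ± 3.07 CPM in the same order and was the only gene of the list that differed between Geltrex™ and fibronectin (log2 0.56 ± 0.09, edgeR, Benjamini-Hochberg adjusted p = 0.00055). The part of cycling cells in the lower *Myog* of these samples was not tested.

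**Figure D4:**
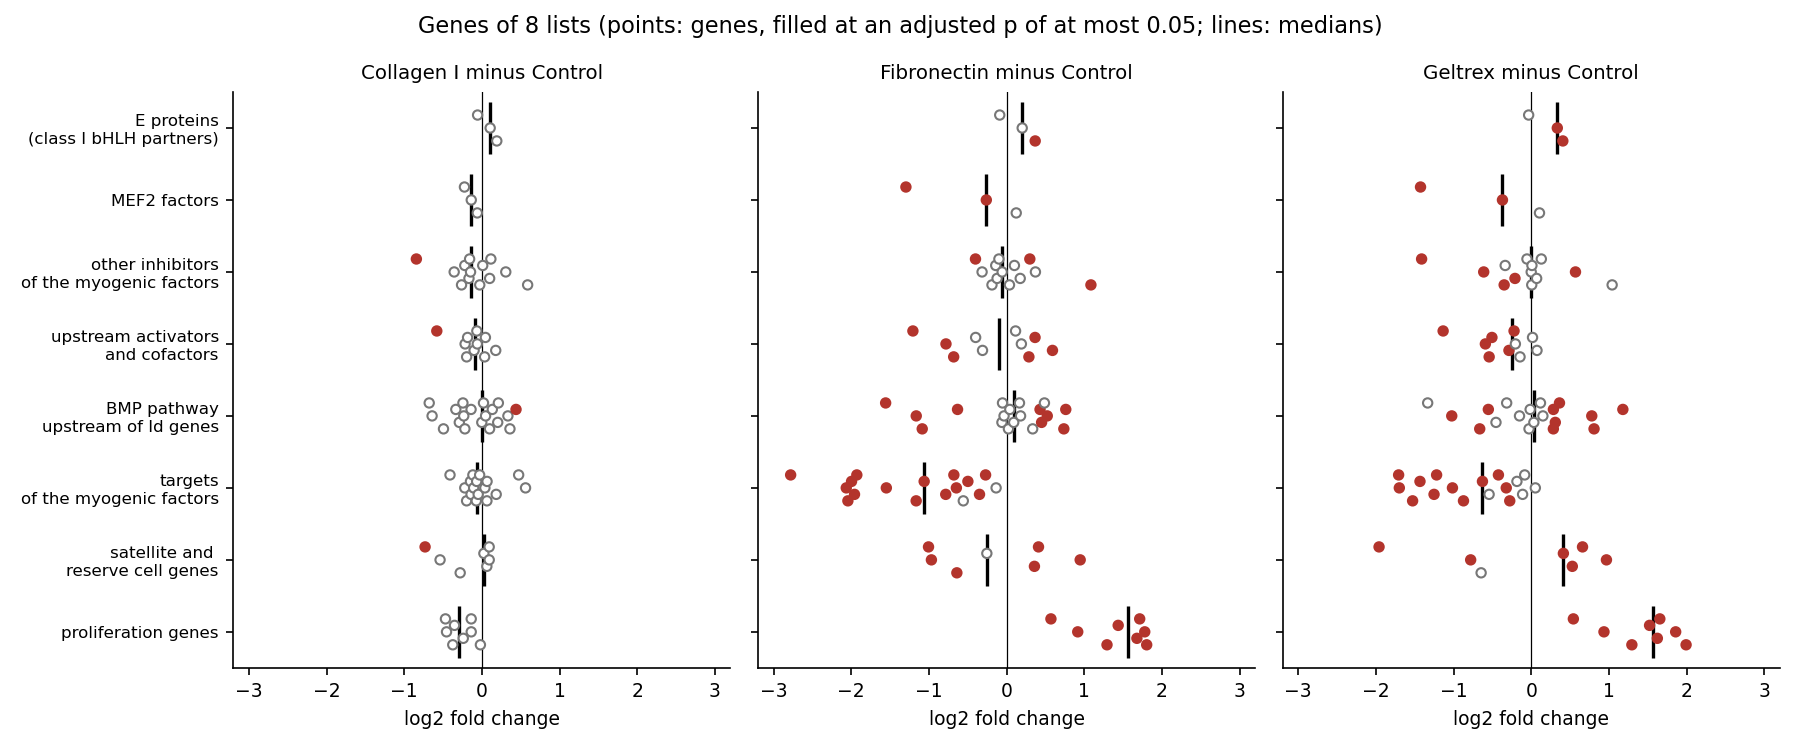
Log2 fold changes of the genes of 8 lists relative to the control on each coating, with 1 panel per coating, 1 row per list, filled points for genes at an adjusted p of at most 0.05, and vertical lines for the list's median. The target genes lay to the left on fibronectin (15 of 17 lower) and Geltrex™ (12 of 17 lower), the 8 proliferation genes lay to the right in both, and few genes passed on Collagen I.

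Upstream of *Myog*, the homeodomain factor encoded by *Six4* acts on the MEF3 motif shown above, with Eya proteins as cofactors. *Six4* was at 75.3 ± 5.52 CPM in the control, at 71.9 ± 7.73 on Collagen I, at 97.1 ± 9.74 CPM on fibronectin, and at 50.02 ± 3.80 CPM on Geltrex™. It rose on fibronectin (log2 0.37 ± 0.10, edgeR, Benjamini-Hochberg adjusted p = 0.0106) and fell on Geltrex™ (log2 -0.59 ± 0.10, edgeR, Benjamini-Hochberg adjusted p = 0.000295), so it moved in opposite directions in the groups where *Myog* was low. The rise did not pass without control replicate 1 (log2 0.32, edgeR, Benjamini-Hochberg adjusted p = 0.0519) or fibronectin replicate 1 (log2 0.32, edgeR, Benjamini-Hochberg adjusted p = 0.0526). For Geltrex™ minus fibronectin, *Six4* was lower by -0.96 ± 0.10 and *Eya4* by -0.79 ± 0.11 (log2, SE, edgeR, Benjamini-Hochberg adjusted p = 6.43e-06 and 9.72e-05).

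Of the 10 tested activators and cofactors, 3 were higher and 3 lower on fibronectin than in the control (median log2 -0.10), where 17.1% of all genes were higher and 14.7% lower, and 5 were lower without Collagen I replicate 3 and when genes with low counts were kept. On Geltrex™, 6 were lower (median -0.25), where 16.6% of all genes were, but 3 without Geltrex™ replicate 3 and 2 with the Geltrex™ samples summed into 1. *Klf5*, which acts with MyoD at muscle genes, fell from 139 ± 7.41 CPM in the control to 60.1 ± 9.32 CPM on fibronectin (log2 -1.21 ± 0.11, edgeR, Benjamini-Hochberg adjusted p = 6.58e-07) and to 95.3 ± 7.12 CPM on Geltrex™ (log2 -0.54 ± 0.11, edgeR, Benjamini-Hochberg adjusted p = 0.000953, and 0.0515 with the Geltrex™ samples summed into 1). *Tead4*, a known target and partner of the myogenic factors, was lower on both coatings (log2 -0.78 ± 0.15 and -1.13 ± 0.15). On Collagen I, 1 gene of the list, *Eya4*, was lower than in the control, where 0.917% of all genes were (log2 -0.58 ± 0.11, edgeR, Benjamini-Hochberg adjusted p = 0.0186). It did not pass with the Geltrex™ samples summed into 1 (edgeR, Benjamini-Hochberg adjusted p = 0.0674), in a fit of these 2 groups alone (edgeR, Benjamini-Hochberg adjusted p = 0.0677), or without Collagen I replicate 1 or 2 or control replicate 3 (log2 between -0.61 and -0.47, edgeR, Benjamini-Hochberg adjusted p between 0.0554 and 0.0812). *Pax3* was not tested with at most 11 counts in a sample, and *Eya2* and *Meox2* had no counts.

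Other inhibitors of the myogenic factors did not move as 1 group. Of 13 tested genes, 2 were higher and 1 lower on fibronectin than in the control (median log2 -0.06), where 17.1% of all genes were higher and 14.7% lower. On Geltrex™, 1 was higher and 4 were lower (median 0.00), where the shares of all genes were 16.4% and 16.6%, and on Collagen I 1 was lower (median -0.15), where 0.917% of all genes were. The 1 lower on fibronectin became 2 without control, Collagen I, or fibronectin replicate 3, with a replicate block, with DESeq2, and with either other filter, and it became 0 with the Geltrex™ samples summed and without any 1 of the other samples except Collagen I replicate 2. On Collagen I 1 gene was higher as well without Collagen I replicate 2 or fibronectin replicate 3, while DESeq2 called 1 higher and 3 lower, and 1 was higher and 2 were lower when genes with low counts were kept. The counts on fibronectin are near the shares of all genes, and with the Geltrex™ samples summed into 1 there were 1 higher and 2 lower on Geltrex™. *Snai1*, a repressor that binds E-boxes, was at 12.8 ± 0.917 CPM in the control, at 7.14 ± 0.404 on Collagen I, at 13.8 ± 1.65 CPM on fibronectin, and at 4.82 ± 0.333 CPM on Geltrex™. Like *Id2*, it was lower on Collagen I than in the control (log2 -0.84 ± 0.12, edgeR, Benjamini-Hochberg adjusted p = 0.00258), but unlike *Id2* it was lowest on Geltrex™. *Hdac9*, a repressor of MEF2 factors, rose on fibronectin from 18.7 ± 0.506 to 39.7 ± 8.90 CPM (log2 1.09 ± 0.15, edgeR, Benjamini-Hochberg adjusted p = 5.21e-05) and was at 18.8 ± 0.696 CPM on Geltrex™. *Id4*, named here after its values were seen, was near the detection limit, with group means from 0.297 to 0.613 CPM. *Mdfi* had at most 5 counts in a sample, and *Twist1* had none.

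BMP signaling through Smad proteins is a known inducer of the Id genes. Of 26 genes on that list, 19 were tested, and those not tested, among them *Bmp2*, *Bmp5*, *Bmp6*, *Bmp7*, *Gdf6*, and *Bambi*, had at most 14 counts in a sample. On fibronectin, 5 were higher and 4 lower than in the control (median log2 0.09), where 17.1% of all genes were higher and 14.7% lower, but 3 were higher and 3 lower without control replicate 1 or fibronectin replicate 1. On Geltrex™, 7 were higher and 3 lower (median 0.03), where the shares were 16.4% and 16.6%, but with the Geltrex™ samples summed into 1 there were 3 higher and 1 lower, 4 higher and 2 lower without control replicate 1 or Geltrex™ replicate 3, and 4 higher and 3 lower without Geltrex™ replicate 1. For Collagen I minus fibronectin, where *Id2* was lower, 3 were higher and 9 lower (median -0.24, and 0.02 for all genes), against shares of 22.1% and 22.9%. In Collagen I minus Geltrex™, 2 were higher and 8 lower (median -0.29, and 0.03 for all genes), against shares of 18.2% and 19%, with 1 higher without Geltrex™ replicate 1 or 2. Fewer BMP genes, and fewer of all genes, passed there with the Geltrex™ samples summed. *Id2* was also lower for Geltrex™ minus fibronectin, where 4 BMP genes were higher and 3 lower (median -0.03, against shares of 9.06% and 10.3%). There only 1 was lower without Collagen I replicate 1, fibronectin replicate 1, or any 1 of the Geltrex™ samples, and 5 were lower in a fit of these 2 groups alone. With the Geltrex™ samples summed, fewer BMP genes, and fewer of all genes, passed in that comparison. The last comparison with lower *Id2* was Collagen I minus control, where the BMP list had a median of 0.00 and 1 gene that passed, higher. *Acvr1* was lower there with DESeq2 (log2 -0.34, DESeq2, Benjamini-Hochberg adjusted p = 0.0104) and with either other filter. When genes with low counts were kept, *Smad6* was lower as well (log2 -0.64, edgeR, Benjamini-Hochberg adjusted p = 0.0387), as were 379 of all genes. *Smad9* was at 1.91 ± 0.797 CPM for Collagen I and 4.53 ± 0.430 CPM on fibronectin (log2 -1.23 ± 0.26, edgeR, Benjamini-Hochberg adjusted p = 0.0013). Whether BMP signaling has a part in the levels of *Id2* was not tested.

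*Smad7*, which inhibits signaling of the TGF-beta family, was at 10.7 ± 1.31 CPM in the control, at 9.22 ± 1.67 on Collagen I, at 10.9 ± 1.89 CPM on fibronectin, and at 24.3 ± 1.73 CPM on Geltrex™. The ligand *Bmp4* and the antagonist *Grem1* were also highest on Geltrex™, at 46.5 ± 1.17 and 493 ± 10.1 CPM, and rose there relative to the control by 0.81 ± 0.14 and 0.78 ± 0.10 (log2, SE, edgeR, Benjamini-Hochberg adjusted p = 0.000333 and 1.46e-05). *Rgmb*, a coreceptor of BMP ligands, was the 1 gene of the list that rose on Collagen I relative to the control, where 0.2% of all genes were higher (log2 0.44 ± 0.10, edgeR, Benjamini-Hochberg adjusted p = 0.0363), where *Id2* fell. That call of *Rgmb* was lost with the Geltrex™ samples summed into 1 (edgeR, Benjamini-Hochberg adjusted p = 0.138), in a fit of these 2 groups alone (edgeR, Benjamini-Hochberg adjusted p = 0.149), and in 9 of the 12 fits that left out 1 sample, all but those without Collagen I replicate 1 and fibronectin replicates 2 and 3 (log2 between 0.34 and 0.47, edgeR, Benjamini-Hochberg adjusted p between 0.0545 and 0.13).

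Beside *Pax7*, genes of satellite and reserve cells moved in both directions. Of 7 tested genes, 3 were higher and 3 lower on fibronectin than in the control (median log2 -0.25), where 17.1% of all genes were higher and 14.7% lower. On Geltrex™, 4 were higher and 2 lower (median 0.41), where the shares of all genes were 16.4% and 16.6%, and with the Geltrex™ samples summed into 1 there were 2 higher and 2 lower. *Vcam1* rose from 121 ± 11.1 CPM in the control to 161 ± 14.2 CPM on fibronectin and to 238 ± 4.24 CPM on Geltrex™. *Met*, the receptor of hepatocyte growth factor, rose from 100 ± 13.7 CPM to 194 ± 14.9 CPM on fibronectin and to 159 ± 5.71 CPM on Geltrex™. *Cxcr4* was lower than in the control (75.3 ± 1.37 CPM) on each coating. Its level was 45.4 ± 6.07 CPM on Collagen I, where it was the 1 gene of the list that passed and 0.917% of all genes were lower (2 were lower with DESeq2, when genes with low counts were kept, and without Collagen I replicate 3 or fibronectin replicate 2), and it was 48.3 ± 3.96 CPM on fibronectin and 19.4 ± 0.538 CPM on Geltrex™. *Calcr*, which marks quiescent satellite cells, and *Chrdl2* had no counts in any sample.

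By pattern over the 12 samples, the genes nearest to *Myog* were *Tnnt3* (fast troponin T), *Coq8a*, and *Fxyd6*, with a root mean square difference in centered log2 CPM of 0.115, 0.127, and 0.146 among 10198 genes. *Tnnt3* had mean levels of 1018, 1067, 230, and 313 CPM in the control, on Collagen I, on fibronectin, and on Geltrex™. Nearest to *Id2* were *Hmox1* (0.106), *Col8a1* (0.123), and *Fkbp5* (0.140), and *Hmox1* had mean levels of 38.8, 26.8, 58.3, and 46.8 CPM in the same order. For *Msc* the nearest were *Gdnf* (0.392), *Chac1* (0.403), and *Smad7* (0.412), and for *Pax7* they were *Dnm3os* (0.383), *Sv2b* (0.403), and *Fam167a* (0.442). Differences for *Msc* and *Pax7* were larger, at 5 to 47 and 2 to 19 counts per sample. *Myod1*, *Myf5*, *Id1*, and *Id3* had group means that spanned less than 1 on the log2 scale and were not matched.

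The labelled cell type was checked with marker genes. All 8 skeletal muscle markers were detected in every group, with *Mylpf* the most abundant, and their summed level was 10580, 10610, and 9694 CPM in the control samples, 11050, 10550, and 10490 CPM on Collagen I, 3592, 3163, and 3358 CPM on fibronectin, and 4922, 4726, and 5130 CPM on Geltrex™. This sum was thus low in the samples in which *Myog* was low. The markers include *Des*, *Ckm*, *Myh3*, *Actc1*, and *Acta1* of the target list, and *Tnnt3*, so the sum in part repeats values given above. Of the 5 fibroblast markers, *Thy1* had no counts, *Dcn* was the most abundant, and the summed level was 1941, 1943, and 2446 CPM in the control, 2210, 2091, and 2060 CPM on Collagen I, 1698, 1710, and 1931 CPM on fibronectin, and 1471, 1418, and 1433 CPM on Geltrex™. This sum is mostly *Dcn*, and the other markers with counts had other orders. *Pdgfra* was at 38.4 ± 4.08 CPM in the control, 27.2 ± 4.70 on Collagen I, 37.1 ± 3.09 on fibronectin, and 42.9 ± 1.65 on Geltrex™. In the same order of groups, *Cd34* was at 58.3 ± 5.7, 60.9 ± 5.1, 74.8 ± 2.3, and 77.7 ± 3.9 CPM. Its samples on fibronectin and Geltrex™ lay above all others, opposite to the sum. *Dpt* was at 3.54 ± 0.54, 4.45 ± 0.54, 2.91 ± 0.47, and 3.69 ± 0.36 CPM. *Pdgfra* was lower on Collagen I than on fibronectin (log2 -0.45 ± 0.12, edgeR, Benjamini-Hochberg adjusted p = 0.00623) and than on Geltrex™ (log2 -0.66 ± 0.12, edgeR, Benjamini-Hochberg adjusted p = 0.000444). For Collagen I minus control it did not pass (log2 -0.49, edgeR, Benjamini-Hochberg adjusted p = 0.0552). It passed there in some alternative fits, such as with DESeq2 (DESeq2, Benjamini-Hochberg adjusted p = 0.00739) and with either other filter. The part of these markers in the levels of *Myog* was not tested.

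The 5 adipocyte markers together had at most 10 counts in a sample, and *Adipoq* had at most 2. *Plin1* was the most abundant of them over all samples, but *Fabp4* lay above it on Geltrex™. Among the osteoblast markers, *Ibsp* had no counts, *Sp7*, *Bglap*, and *Alpl* had at most 4, and the sum of 50 to 92.5 CPM was nearly all *Runx2*. *Runx2* was at 64.0 ± 6.92 CPM in the control, at 52.8 ± 3.196 on Collagen I, at 79.7 ± 12.8 CPM on fibronectin, and at 75.6 ± 6.44 CPM on Geltrex™, so its order ran opposite to that of *Myog*. It was lower on Collagen I than on fibronectin (log2 -0.59 ± 0.11, edgeR, Benjamini-Hochberg adjusted p = 0.000691) and on Geltrex™ (log2 -0.52 ± 0.11, edgeR, Benjamini-Hochberg adjusted p = 0.0023), and its part in the levels of *Myog* was not tested. For fibronectin minus control it passed narrowly (log2 0.32 ± 0.11, edgeR, Benjamini-Hochberg adjusted p = 0.0433), and not with the Geltrex™ samples summed into 1 (edgeR, Benjamini-Hochberg adjusted p = 0.0657), with at least 10 counts required in every sample (edgeR, Benjamini-Hochberg adjusted p = 0.0595), in a fit of these 2 groups alone (edgeR, Benjamini-Hochberg adjusted p = 0.0986), or without control replicate 1 (log2 0.23), Collagen I replicate 1, fibronectin replicate 1 or 2 (log2 0.20), or any 1 of the Geltrex™ samples (edgeR, Benjamini-Hochberg adjusted p between 0.0506 and 0.216). Endothelial markers summed to between 0.769 and 3.49 CPM, mainly *Tek*, with *Tie1* at 0 and *Cdh5* and *Kdr* at 2 counts or fewer. Immune markers summed to between 0.624 and 1.59 CPM, mainly *Cd68*, with *Adgre1* at 0 and *Ptprc* and *Cd3e* at 1 count or fewer.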

How the data were processed

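RNA was sequenced from 12 samples in 4 groups of 3. The files hold unnormalized read counts for each gene, for which the authors name FastQC, Trimmomatic, HISAT2, and featureCounts, with DESeq2 for their own comparisons. Genome build, annotation release, and use of the strand are not given in the sources used here. All 55536 identifiers matched the GENCODE annotation of GRCm38, which gave names, positions, and exon lengths.

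The analysis used edgeR 4.0.16 (R 4.3.3). The filter was filterByExpr (minimum count 10, minimum total 15), library sizes were scaled by TMM, and a single quasi-likelihood fit of all 12 samples gave 6 comparisons, with Benjamini-Hochberg adjustment over 14499 genes. The procedure was tested on simulated data. The 9 genes and the lists were chosen with earlier results of these data known. Named list genes passed in at least 1 comparison (at most the 4 highest and 4 lowest of a list) or failed the filter, and *Id4* was added later. Nearest genes had a mean of at least 5 CPM and were sought for genes whose group means spanned at least 1 log2 unit. Of 4 promoter motifs searched, all are reported. Alternatives were DESeq2 1.42.0, RLE scaling, other filters, fits of 2 groups, a replicate block, a fold minimum, and leaving out each sample. Values of 2 list genes are not reported here, although the list counts include them.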

Additional observations from a re-analysis of the deposited data

How the results depend on the processing

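Genes with few counts, such as *Pax7*, *Msc*, and *Myf6*, had wide intervals, and 3 samples per group limit what can be detected. Of 895 log2 fold changes of the 8 tested genes under an alternative, 825 kept their direction and their side of the threshold, 38 no longer passed, 15 newly passed, and 17 had the other sign. Of 912 counts of list genes, 826 stayed within 1.5 times the reported count and 86 did not. Of these 86, 37 were for Collagen I minus Control, where every list has a count of 0 or 1, 46 came from leaving out 1 sample, and 17 from the summed Geltrex samples. Leaving out 1 sample leaves fewer samples and 1 filter keeps fewer genes; beyond this the cause was not tested.

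Of the 8 genes, those that passed for Geltrex minus Fibronectin (2 as reported) numbered 1 with RLE scaling, 0 when every sample needed 10 counts or more, 4 when low counts were not filtered, and 1 with a fold change of at least 2. With that fold minimum, 0 passed for Collagen I minus Control, 1 for Fibronectin minus Control, and 2 for Collagen I minus Geltrex. Summing the 3 Geltrex samples into 1 was chosen after seeing the data and left 1 gene for Geltrex minus Control, 2 for Collagen I minus Geltrex, and 0 for Geltrex minus Fibronectin. When 1 sample was left out, 0 to 1 passed for Collagen I minus Control, 2 to 4 for Collagen I minus Fibronectin, and 0 to 2 for Geltrex minus Fibronectin. From sums of CPM, the Id share was 13.44% in the Control and 24.91% on Geltrex.

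Log2 fold changes that changed sign when 1 sample was left out had not passed in the fit of all samples. For Collagen I minus Control they ranged from -0.13 to 0.0502 for *Myod1*, from -0.0442 to 0.15 for *Myog*, and from -0.94 to 0.28 for *Msc*. For Fibronectin minus Control they ranged from -0.42 to 0.0898 for *Pax7*, from -0.0399 to 0.12 for *Id1*, and from -0.29 to 0.12 for *Id3*. For Geltrex minus Control, *Myf5* ranged from -0.10 to 0.00761. For Collagen I minus Geltrex they ranged from -0.13 to 0.0557 for *Myf5*, from -0.31 to 0.56 for *Pax7*, and from -0.16 to 0.30 for *Id1*.

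Samples share only a replicate number, and no source says that equal numbers were handled together. The correlation of same-numbered samples over genes, after the group means were removed, was not above 0.1 for all 3 numbers in any comparison. For Collagen I minus Fibronectin it was 0.0473, 0.169, and 0.225, and each sample there correlated best with its own number, which did not hold in the other 5 comparisons. With a replicate block, *Myod1* for Geltrex minus Control was at -0.23 (edgeR, Benjamini-Hochberg adjusted p = 0.0578) and *Id2* for Geltrex minus Fibronectin at -0.33 (edgeR, Benjamini-Hochberg adjusted p = 0.053), whereas *Myog* for Geltrex minus Fibronectin passed at 0.35 (edgeR, Benjamini-Hochberg adjusted p = 0.0458).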
